A study of Homo sapiens with 66 samples.

Results

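The nuclear pore complex is the channel through which RNA and proteins pass between nucleus and cytoplasm, and its proteins are called nucleoporins. Here 32 nucleoporin genes were followed in a series of RNA-seq libraries in which single proteins of the pore, or of its transport machinery, were degraded within hours. The genes were chosen by symbol and grouped by the place of their protein in the pore, and each matched 1 Ensembl gene among the 58051 genes counted. The nuclear basket held 3 of them (TPR, NUP153, NUP50), the outer ring 9, the inner ring 5, the central channel 4, the cytoplasmic filaments 7 and the pore membrane 4. The question was whether loss of 1 pore protein changed the RNA of the others.

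The pore is a stack of rings. The inner ring and the outer rings form its scaffold, membrane nucleoporins anchor it where the nuclear membranes meet, and the central channel is filled by unfolded proteins rich in phenylalanine and glycine. Fibres reach from the scaffold into the cytoplasm, where messenger RNA is released, and into the nucleus, where they make the basket. Scaffold proteins are among the most long-lived of a cell, while many channel and filament proteins exchange at the pore.

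All libraries came from DLD-1, a colorectal cancer cell line, and hold total RNA depleted of ribosomal RNA. In each degron line the AID tag was placed on the gene's own copies: AID-NeonGreen-TPR (here AID-TPR), NUP153-NeonGreen-AID (NUP153-AID), NUP50-NeonGreen-AID (NUP50-AID), GAP1-NeonGreen-AID (RANGAP1-AID), AID-FLAG-NXF1 (AID-NXF1) and AID-HA-GANP1 (AID-GANP). AID is a degron: with the plant protein TIR1, which these lines make from the RCC1 locus, the hormone auxin leads to rapid destruction of the tagged protein. Each line is 1 clone, so a difference between lines cannot be told apart from a difference between clones.

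RANGAP1 sets off GTP hydrolysis by RAN, the GTPase that drives nuclear transport. NXF1 carries messenger RNA through the pore, and GANP (gene MCM3AP) is the scaffold of the TREX-2 complex at the basket. AID-TPR cells were sampled untreated and after 2 h of auxin, and in a further set of libraries labelled "old" untreated and after 2 h and 8 h. For NUP153-AID and RANGAP1-AID the auxin times were 2 h and 8 h, and for NUP50-AID 3 h and 9 h. AID-NXF1 cells had auxin for 2 h and AID-GANP cells for 3 h, each beside untreated cells of the line. Parental DLD-1 cells, which the labels call original, were sampled with and without 2 h of auxin, and AID-TPR cells also after 2 h of actinomycin D, an inhibitor of transcription, with and without auxin. Each of the 22 groups had 3 replicates.

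The 66 libraries held 18943661 to 55411411 counted reads, with a median of 32285399.5. They had been counted in 3 ways: 24 libraries (DLD-1, AID-NXF1, AID-GANP and the plain AID-TPR set) held no mitochondrial counts, 33 (the old AID-TPR set, actinomycin D, NUP153-AID and NUP50-AID) held them but none for the nuclear RNA gene RMRP, and the 9 RANGAP1-AID libraries held both. Every comparison with untreated cells stays within 1 way. Levels of different lines are set side by side only within a way, apart from the ranges over all untreated sets and the levels of IL4I1 below. The summed level of 8 genes of colorectal epithelium was 5310 to 15100 CPM (counts scaled by library size) and that of 5 genes of other cell types 0 to 2.31 CPM, although CEACAM5, an epithelial marker, was at 0 in 22 of the 66 libraries. CYP1A1, a gene that indole compounds can induce, was higher after auxin in each degron line without actinomycin D (in RANGAP1-AID cells by 5.86 on the log2 scale at 2 h), but in the parental cells it was at a mean of 12.6 CPM in the libraries labelled auxin and 182 CPM in those labelled untreated. This goes against the labels of the parental libraries, and any direction drawn from them is in doubt. After 2 h of auxin in the old AID-TPR set CYP1A1 was at 417, 47.5 and 348 CPM (old1 to old3). After 8 h it was at 90.5, 293 and 42.8 CPM, so replicate old2 was lowest at 2 h and highest at 8 h. Whether the old2 libraries were exchanged between the times was not tested, and comparisons that use them are in doubt. In bulk RNA, fewer cells of a type and less RNA per cell cannot be told apart.

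All 32 nucleoporin genes passed the filter on low counts, which left 17812 genes. Among untreated cells the order of the genes was judged on CPM per kilobase of exon, a level corrected for length. NUP50, a basket protein that helps importin α release its cargo, was at 34.3 to 61.2 CPM per kilobase over the 8 sets of untreated libraries and ranked between 1 and 3. NDC1, a membrane protein of pore assembly, was at 30.9 to 48.1, and SEC13, which the outer ring shares with the COPII coat of secretory vesicles, at 25.9 to 37.6 CPM per kilobase. At the other end stood NUP214, a cytoplasmic filament protein, with 0.992 to 2.43 CPM per kilobase, POM121C with 1.04 to 2.46 and POM121 with 1.32 to 3.68. Per kilobase these 3 genes were the lowest of the 32 in every line. The ranges over the 8 sets span the 3 ways of counting, so differences of line and of counting cannot be told apart in them. The length is that of all annotated exons together, 24733 bases for NUP214. In CPM alone NUP214 averaged 46.7 in untreated AID-TPR cells, above NUP35 with 29.6 and NUP42 with 29.3. In NUP153-AID it was below them, at 24.5 against 40.0 and 38.4 CPM. POM121 and POM121C are near-identical copies, as is part of RANBP2 to its relatives, and reads shared between copies make their counts uncertain.

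Among lines counted the same way, each basket gene had its lowest untreated level in the line that carries its tag. TPR, the coiled-coil protein of the basket fibres, was at 153, 137 and 158 CPM in untreated AID-TPR cells. In the lines counted the same way it was at 194, 205 and 195 CPM in DLD-1, at 187, 191 and 179 in AID-NXF1 and at 187, 185 and 193 in AID-GANP. In the old set TPR was at 203, 169 and 129 CPM in AID-TPR, against 263, 270 and 232 in NUP153-AID and 249, 299 and 230 in NUP50-AID. The AID-TPR libraries thus lay below all libraries of the other lines of their way, without overlap.

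NUP153, which joins the basket to the inner side of the pore, was at 140, 149 and 121 CPM in untreated NUP153-AID cells, at 167, 161 and 160 in the old AID-TPR set and at 182, 180 and 180 in NUP50-AID. NUP50 was at 262, 296 and 290 CPM in NUP50-AID cells, at 465, 473 and 445 in the old AID-TPR set and at 503, 499 and 511 in NUP153-AID. Neither gene's own line overlapped the others. A line without a tag could be as low: in the other way of counting NUP153 was at 146, 143 and 137 CPM in parental DLD-1, below AID-TPR, AID-NXF1 and AID-GANP, where it was at 164 CPM or more. The pattern of the tagged lines was noticed after the levels were seen and was not tested, and the tag, the clone and the library set cannot be told apart. Of the tagged genes that are no nucleoporins, NXF1 averaged 123 CPM in untreated AID-NXF1 cells, above the 50.4 to 56.6 CPM of the other lines of its way. MCM3AP averaged 134 CPM in AID-GANP, between the 107 and 145 CPM of the other lines of its way, and RANGAP1 103 CPM in RANGAP1-AID, which is alone in its way.

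**Figure D1:**
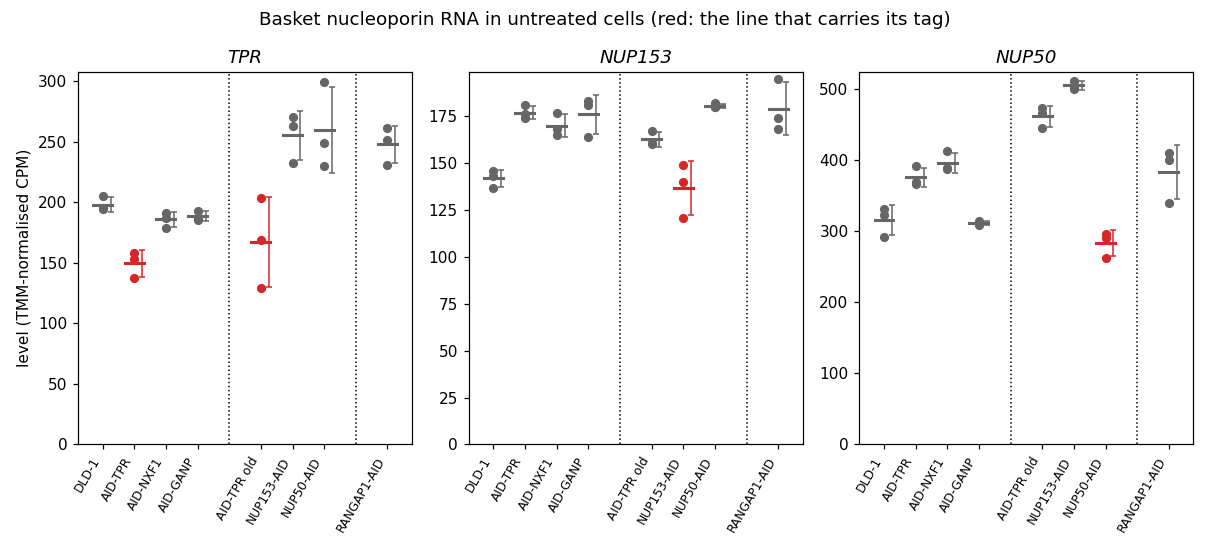
Levels of TPR, NUP153 and NUP50 in untreated cells of each line (vertical axis, TMM-normalised CPM). Points are the 3 libraries of a line, lines and bars are mean ± SD, and lines counted in different ways are separated, since levels compare only within a way. TPR lies at 137 to 158 CPM in AID-TPR and at 179 CPM or more in the other lines counted like it.

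Of the 3 lines counted with mitochondrial genes but without RMRP, the untreated old AID-TPR set had the lowest mean of 17 of the 32 genes. NUP153-AID had the lowest of 9 and NUP50-AID of 6. The same count over all genes was not made, so these counts are not read as a trait of a line. In NUP153-AID cells POM121 averaged 13.0 CPM, against 34.0 in the old AID-TPR set and 20.1 in NUP50-AID. POM121C averaged 9.14 CPM against 21.6 and 12.1, NUP214 24.5 CPM against 56.0 and 38.7, and NUP62 66.3 CPM against 92.0 and 84.7. The other genes lowest in NUP153-AID were NUP153, AHCTF1, NUP188, NUP155 and NUP210.

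Within each line, auxin was then compared with no auxin for every gene, as a log2 difference from edgeR's quasi-likelihood test. A gene passed when its p-value, adjusted over all 17812 genes by the Benjamini-Hochberg method, was under 0.05. Without pairing of samples, loss of a basket protein or 2 h without RANGAP1 left almost all nucleoporin genes under this threshold. Loss of NXF1, loss of GANP or 8 h without RANGAP1 took 9, 12 and 10 of the 32 past it (21.5%, 28.9% and 26.7% of all genes). With the replicate number as a block in the fit, 6 passed after 2 h of TPR loss, against 11.1% of all genes. With it the other 3 counts were 18, 26 and 19 (39.0%, 52.6% and 48.2%). Counts in further settings are given at the end. For those, and for counts with a library left out, the share of all genes is not given. They are therefore not read as particular to the nucleoporin genes. The other counts are read below against the percentage of all tested genes that passed in the same comparison. How many of all genes had ranges without overlap was not counted. A lack of overlap therefore describes the libraries of a gene and adds no support to its call.

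**Figure D2:**
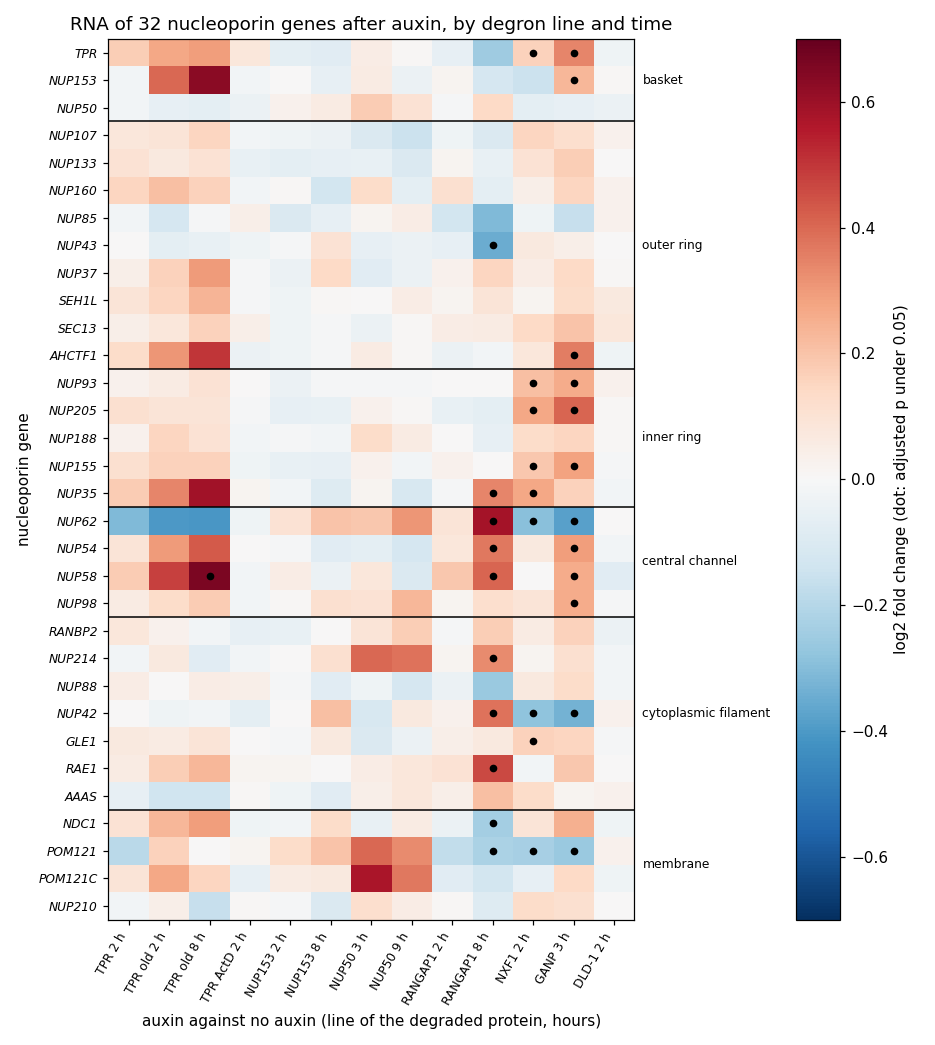
Log2 difference of each of the 32 nucleoporin genes (rows, grouped by place in the pore) in each comparison of auxin with no auxin (columns, the actinomycin D pair included), on a colour scale from lower (blue) to higher (red), with a dot on changes that passed. Dots gather in the columns for 8 h of RANGAP1 loss, for NXF1 and for GANP.

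After 2 h of TPR loss, 0 of 32 genes passed (0.662% of all genes did), and 4 (1679 of all 17812) were at an unadjusted p under 0.05 by edgeR. Log2 differences of the 32 ran from -0.31 to 0.18, and 23 of them were positive, as were 9314 of all 17812 genes. With the replicate number as a block, which pairs these samples, 6 of the 32 passed, against 11.1% of all genes: NUP62 at -0.32 and POM121 at -0.19, and NUP160 at 0.15, TPR at 0.17, NUP35 at 0.18 and NUP58 at 0.18. In the old set 0 passed at 2 h (0.455% of all genes), with 3 (2151 of all 17812) at p under 0.05. There 25 differences of the 32 were positive, as were 8594 of all 17812. The old2 libraries, in doubt above, are part of this comparison and of that at 8 h. In 1 fit over 60 libraries more of the 32 passed at 2 h in the old set, with the count given at the end.

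At 8 h of TPR loss 1 of 32 genes passed, against 3.63% of all genes. It was NUP58, a partner of NUP62 and NUP54 in the central channel. NUP58 was at 204, 221 and 205 CPM in untreated libraries and at 375, 286 and 342 CPM after 8 h. It rose by 0.66 ± 0.12 (SE, log2, n = 3 per group; edgeR adjusted p = 0.0266) with no overlap. Without auxin replicate old2 it passed along with 5 other members, and without any other library in turn 0 of the 32 genes passed. It was also the 1 member that changed by at least 1.3-fold, or to at most 0.7-fold, and passed, where 3.61% of all genes did. In some other unpaired settings, most of all in 1 fit over 60 libraries, more members passed, with the counts given at the end.

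Other members came close at 8 h. NUP153 was at 167, 161 and 160 CPM in untreated cells and at 300, 181 and 278 after 8 h, a log2 difference of 0.63 with an edgeR adjusted p of 0.071. The second auxin library, old2, stayed close to the untreated ones. At 2 h NUP153 was at 183, 298 and 170 CPM, with old2 the high one. As with CYP1A1, an exchange of the old2 libraries between the times was not tested. NUP54 differed by 0.43 (edgeR adjusted p = 0.0729), NUP35, an inner ring protein that touches the membrane, by 0.59 and AHCTF1, the chromatin-binding protein ELYS that starts pore assembly, by 0.50, and none of these passed. Between 8 h and 2 h of auxin 0 of 32 genes passed, as did 0% of all genes, and 0 (48 of all 17812) were at p under 0.05 by edgeR. If the old2 libraries were exchanged, this comparison would mix the times. Its 0 is therefore not read as a lack of change.

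After loss of NUP153, 0 of 32 genes passed at 2 h (0.0393% of all genes) and 0 at 8 h (1.92%). At an unadjusted p under 0.05 by edgeR were 0 and 3 of the 32 (667 and 2459 of all 17812). The differences ran from -0.10 to 0.13 at 2 h and from -0.13 to 0.21 at 8 h. Between the 8 h and 2 h libraries 0 of 32 passed (3.07% of all genes), with 2 (2884 of all 17812) at p under 0.05. NUP62, the main protein of the central channel, had a log2 difference of 0.20 at 8 h and NUP42 one of 0.21.

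After loss of NUP50, 0 of 32 genes passed at 3 h (0.225% of all genes) and 0 at 9 h (0.528%). At an unadjusted p under 0.05 by edgeR were 4 and 6 of the 32 (1091 and 2940 of all 17812). Without untreated replicate 1, 2 genes passed at 9 h. With the replicate block, 2 passed at 3 h (1.34% of all genes) and 6 at 9 h (13.0%), all upward, although the numbers were not taken to pair these samples. The largest difference was that of POM121C at 3 h, 12.4, 12 and 12 CPM in untreated cells and 23.2, 14.3 and 16.5 CPM after auxin (log2 0.57, edgeR adjusted p = 0.374). All auxin libraries were above all untreated ones, but the first stood far over the other two. NUP214 was at 40.7, 37.1 and 38.2 CPM in untreated cells, at 58.4, 51.2 and 42.7 after 3 h and at 52.7, 49.8 and 47.1 after 9 h, a log2 difference of 0.40 at 3 h and 0.38 at 9 h with an edgeR adjusted p of 0.374 and 0.0588. Neither time overlapped the untreated libraries.

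NUP62 was at 91.2, 77.8 and 84.9 CPM in untreated NUP50-AID cells and at 106, 106 and 100 CPM after 9 h (log2 0.31, edgeR adjusted p = 0.0795). The ranges did not overlap. Between 9 h and 3 h of NUP50 loss 0 of 32 passed (0.331% of all genes), with 4 (1486 of all 17812) at p under 0.05. With the replicate block, which pairs these samples, NUP58 alone passed, at -0.18, against 4.65% of all genes.

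Without the replicate block the tagged basket genes did not pass in their own lines. TPR was at 165, 174 and 166 CPM after 2 h of auxin in AID-TPR cells, above all untreated libraries (log2 0.17, edgeR adjusted p = 0.478). With the block, which pairs these samples, it passed at 0.17 (edgeR adjusted p = 0.0176). In the old set it was at 212, 221 and 176 CPM after 2 h (0.27, edgeR adjusted p = 0.567) and at 232, 188 and 196 CPM after 8 h (0.29, edgeR adjusted p = 0.341), overlapping the untreated range. NUP153 was at 144, 142 and 124 CPM after 2 h in NUP153-AID cells and at 130, 127 and 136 CPM after 8 h, within the untreated range (0.00 and -0.06, edgeR adjusted p = 1 and 0.841). NUP50 was at 324, 306 and 324 CPM after 3 h in NUP50-AID cells and at 304, 299 and 301 CPM after 9 h, above the untreated libraries at both times (0.18 and 0.10, edgeR adjusted p = 0.682 and 0.449). A degron removes protein, so these RNA levels do not check whether the protein was lost.

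The basket losses were also set against each other as differences of log2 differences. Between loss of TPR and loss of NUP153 0 of 32 genes passed (0.646% of all genes), with 3 (1150 of all 17812) at p under 0.05 by edgeR. Between TPR and NUP50 0 passed (0.124%), with 5 (1756 of all) at p under 0.05. Between NUP153 and NUP50 0 passed (0.0449%), with 2 (755 of all) at p under 0.05. For NUP62 TPR loss differed from NUP153 loss by -0.42 (edgeR adjusted p = 0.201). The replicate block pairs the samples of both losses, and with it 2 genes passed there, NUP62 at -0.42 (edgeR adjusted p = 0.00146) and POM121 at -0.34 (0.0401), against 4.58% of all genes. Between TPR loss and NUP50 loss NUP62 differed by -0.50 (edgeR adjusted p = 0.230). Against the difference within parental cells, TPR loss had 0 of 32 pass (0.825% of all genes), with 4 (1697 of all 17812) at p under 0.05. With the parental labels turned 0 passed as well (0.354%).

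Within parental DLD-1 cells 0 of 32 genes passed (0.0786% of all genes) and 0 (558 of all 17812) were at p under 0.05 by edgeR. Every nucleoporin gene lay between -0.08 and 0.08.

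Loss of NXF1 for 2 h changed 9 of 32 nucleoporin genes, 28.1%, against 21.5% of all genes. Of the 32, 6 rose (7.41% of all genes) and 3 fell (14.1%). The median log2 difference was 0.07. Inner ring genes gave 4 of the 6 rises, while 0 of the 9 outer ring genes passed without the replicate block. The median by place was 0.21 for the inner ring, 0.07 for the outer ring, 0.06 for the filaments, 0.04 for the channel, 0.02 for the membrane and -0.07 for the basket. The count rested on single libraries: it was 4 without auxin replicate 1, auxin replicate 2 or untreated replicate 2, 5 without untreated replicate 3, and 4 to 12 over all 6. In 1 fit over 60 libraries it was 2, NUP205 and NUP62, with the share of all genes in that fit not given here. With the replicate block, which pairs these samples, 18 passed, against 39.0% of all genes.

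Of the inner ring, which spans the pore between the outer rings, NUP205 changed most after NXF1 loss. NUP205 was at 201, 198 and 188 CPM in untreated cells and at 249, 245 and 223 CPM after auxin, a rise of 0.27 ± 0.05 (SE, log2, n = 3 per group; edgeR adjusted p = 0.00409). NUP35 was at 28.6, 27.8 and 29.1 CPM and then at 35.7, 35.3 and 33.8 (0.27 ± 0.06, edgeR adjusted p = 0.00501). In both genes every auxin library was above every untreated one. NUP93, which links inner ring and channel, rose from 158, 151 and 144 CPM to 188, 179 and 165 (0.21, edgeR adjusted p = 0.0208), and NUP155, which touches the membrane, from 264, 255 and 242 to 302, 305 and 273 (0.19, edgeR adjusted p = 0.0299). The fifth inner ring gene, NUP188, was at 0.13 and passed with the block alone (edgeR adjusted p = 0.00432).

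Outside the inner ring, TPR rose from 187, 191 and 179 CPM to 214, 211 and 204 (0.16, edgeR adjusted p = 0.0362) and GLE1, which activates the helicase that strips export factors from RNA, from 70.5, 65.5 and 65.4 to 77.7, 77 and 73.7 (0.16, edgeR adjusted p = 0.0391). Their ranges did not overlap, though the gap was small for GLE1. NUP62 fell from 92.5, 91.7 and 91.4 CPM to 74, 76.4 and 78.2 (-0.29 ± 0.05, edgeR adjusted p = 0.00115). NUP42, the filament partner of GLE1, fell from 35.9, 37.4 and 39 CPM to 32.4, 31.4 and 30.1 (-0.28 ± 0.06, edgeR adjusted p = 0.00605). POM121, a membrane protein of pore assembly, fell from 35.7, 39.6 and 33.6 CPM to 29.7, 32.3 and 32 (-0.23 ± 0.07, edgeR adjusted p = 0.0372). In all 3 genes every auxin library lay below every untreated one. NUP205, NUP35, NUP62 and NUP42 passed without each library in turn, while TPR, NUP93, NUP155, GLE1 and POM121 each lost their call without auxin replicate 1, auxin replicate 2 or untreated replicate 2, among others.

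Loss of GANP for 3 h changed 12 of 32 nucleoporin genes, 37.5%, against 28.9% of all genes. Of the 32, 9 rose (10.2% of all genes) and 3 fell (18.7%). The median log2 difference was 0.15, with 27 of 32 positive, against a median near 0 over all genes, with 9134 of 17812 positive. By place it was 0.26 for the inner ring and for the channel, 0.23 for the basket, 0.14 for the outer ring and 0.13 for the filaments and the membrane. Scaling to library totals moved the count to 7, with the share of all genes in that setting not given here. It was 7 without untreated replicate 2, 6 without untreated replicate 3 and 6 to 10 over the 6 libraries left out in turn. With the replicate block, which pairs these samples, 26 passed, against 52.6% of all genes.

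NUP205 again stood at the top of the inner ring. It was at 177, 169 and 174 CPM in untreated AID-GANP cells and at 238, 228 and 229 CPM after auxin, a rise of 0.41 ± 0.06 (SE, log2, n = 3 per group; edgeR adjusted p = 0.000932). At 1.33-fold it was the 1 member that passed with a change of at least 1.3-fold or to at most 0.7-fold, where 15.5% of all genes did (8.16% after NXF1 loss, with 0 members). NUP93 rose from 126, 114 and 127 CPM to 153, 137 and 151 (0.26, edgeR adjusted p = 0.0287), and NUP155 from 223, 207 and 216 to 282, 255 and 250 (0.28, edgeR adjusted p = 0.0191).

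Of the basket, TPR rose from 187, 185 and 193 CPM to 246, 239 and 235 (0.34 ± 0.06, edgeR adjusted p = 0.00288), and NUP153 from 164, 183 and 181 CPM to 206, 211 and 207 (0.23, edgeR adjusted p = 0.0288). Every GANP-depleted library was above every untreated one in both genes. After NXF1 loss NUP153 had instead a log2 difference of -0.15 (edgeR adjusted p = 0.0907, or 0.00365 with the block), and the difference between the losses was not tested. In the outer ring AHCTF1 alone passed without the block, from 115, 111 and 118 CPM to 156, 145 and 143 (0.36 ± 0.07, edgeR adjusted p = 0.00351).

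All 4 central channel genes passed after GANP loss. NUP54 rose from 96.8, 96.1 and 96.7 CPM to 130, 114 and 114 (0.29, edgeR adjusted p = 0.0148) and NUP58 from 223, 234 and 214 to 290, 274 and 243 (0.26, edgeR adjusted p = 0.0374). NUP98, a mobile nucleoporin that also binds chromatin, rose from 350, 323 and 355 CPM to 424, 409 and 408 (0.26, edgeR adjusted p = 0.0163). The fourth, NUP62, fell from 99.7, 85 and 94.4 CPM to 76.3, 67 and 72.8 (-0.38 ± 0.08, edgeR adjusted p = 0.00713), although its protein forms a complex with those of NUP54 and NUP58. NUP42 fell from 36.5, 31.8 and 32.7 CPM to 30.7, 24.9 and 25.2 (-0.33 ± 0.1, edgeR adjusted p = 0.0331), and POM121 from 33.3, 34.9 and 32.5 to 26.4, 30.4 and 27.6 (-0.26 ± 0.08, edgeR adjusted p = 0.0272). The ranges of untreated and auxin libraries did not overlap in any of these 6 genes. TPR, AHCTF1, NUP205, NUP54 and NUP62 passed without each of the 6 libraries in turn. NUP98 lost its call without untreated replicate 2, NUP155 without untreated replicate 2 or 3, and NUP153, NUP93, NUP58, NUP42 and POM121 each without at least 4 of the libraries.

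**Figure D3:**
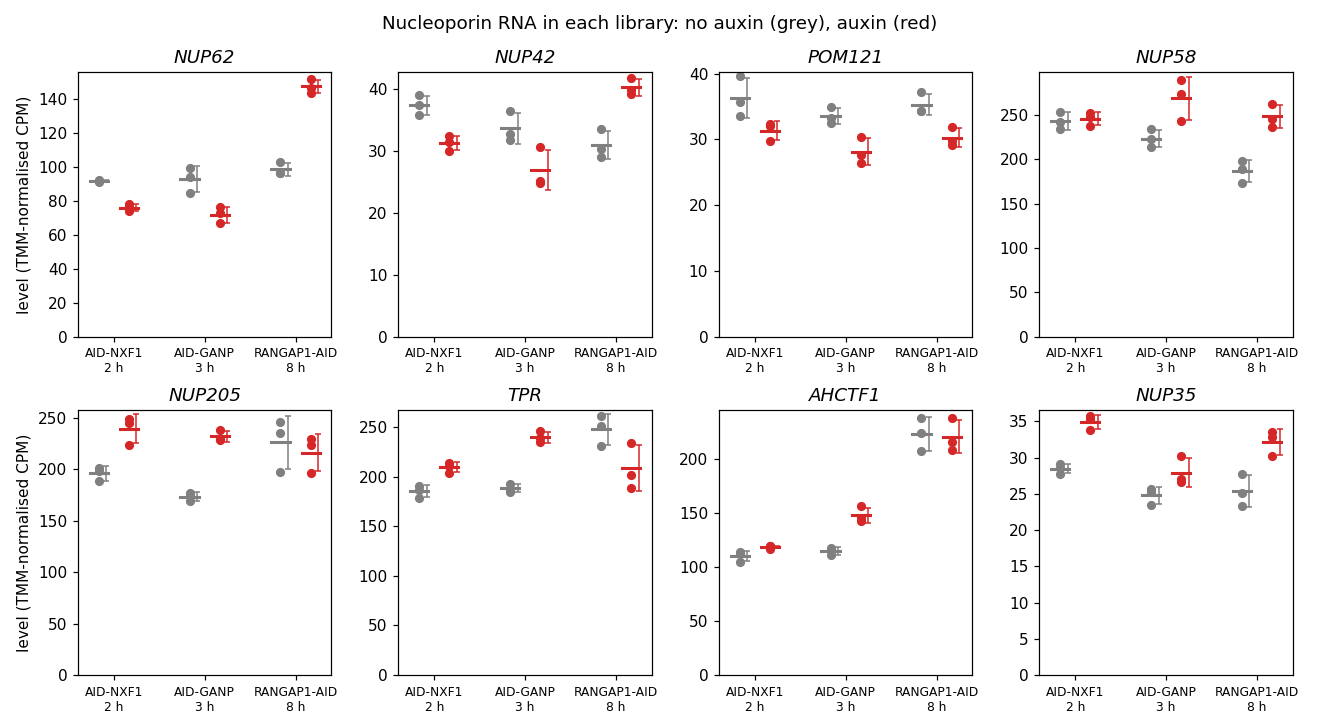
Levels of 8 nucleoporin genes (vertical axes from 0, TMM-normalised CPM) in untreated (grey) and auxin (red) libraries of AID-NXF1 (2 h), AID-GANP (3 h) and RANGAP1-AID (8 h). Points are the 3 libraries, lines and bars are mean ± SD, and a pair of groups is to be compared only within its line. NUP62, NUP42 and POM121 lie lower after NXF1 and GANP loss and NUP205 lies higher, while NUP62 is at 144 to 152 CPM after RANGAP1 loss.

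The difference of log2 differences between NXF1 loss and the parental cells (labelled auxin minus labelled untreated) had 4 of 32 genes pass (9.71% of all genes): NUP205 at 0.25 and NUP35 at 0.29, and NUP62 at -0.29 and NUP42 at -0.31. This count was 2 without AID-NXF1 auxin replicate 2, DLD-1 auxin replicate 2 or DLD-1 untreated replicate 2, and 2 to 6 over all libraries left out. In 1 fit over 60 libraries it was 0. GANP loss had 10 pass (20.1% of all genes), the 12 above without NUP153 and NUP93, from 0.41 for NUP205 to -0.37 for NUP62, and in 1 fit over 60 libraries 2 passed. Since CYP1A1 goes against the parental labels, the contrasts were also taken with those labels turned, an alternative chosen after seeing the data. Then 5 of 32 passed for NXF1 loss (12.6% of all genes), the 4 above and NUP93, and 9 for GANP loss (20.9%), with NUP58 (0.19), NUP42 (-0.29) and POM121 (-0.23) no longer passing and NUP93 and NUP153 added.

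Of the 9 genes that passed after NXF1 loss, 7 also passed after GANP loss (77.8% of the 9 and 58.3% of the 12), each in the same direction: TPR, NUP93, NUP205 and NUP155 upward and NUP62, NUP42 and POM121 downward. Over all genes 2536 were shared, 66.1% of the 3836 and 49.2% of the 5152, and 98.8% had the same sign. The 2 comparisons share no libraries.

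The promoters of 3 genes that fell and of 1 that rose after both losses are shown, since the members moved in opposite directions and the windows let their sequence be compared. They are RefSeq sequences of GRCh38.p14 from 250 bases before to 50 after the start, 5′ to 3′ on the gene's strand, and capitals mark motifs found in either direction. NUP62 lies at chr19:49929455-49929754 on the minus strand and holds the palindrome bound by NRF1, whose letters are its capitals below, from 59 bases before the start. NUP42 at chr7:23181798-23182097 on the plus strand holds CCAAT, bound by NF-Y, in reverse at 147 bases. POM121 at chr7:72879107-72879406 on the plus strand holds CCGGAAG, an ETS motif, in reverse at 83 bases. NUP205 at chr7:135557667-135557966 on the plus strand holds CCAAT at 148 and ACTACAA, a ZNF143 motif, at 244 bases.
NUP62: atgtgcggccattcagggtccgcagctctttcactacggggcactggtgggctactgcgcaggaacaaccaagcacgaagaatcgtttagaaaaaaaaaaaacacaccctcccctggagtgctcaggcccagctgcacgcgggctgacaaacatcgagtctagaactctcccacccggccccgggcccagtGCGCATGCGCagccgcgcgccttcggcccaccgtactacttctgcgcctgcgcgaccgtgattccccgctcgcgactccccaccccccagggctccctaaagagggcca
NUP42: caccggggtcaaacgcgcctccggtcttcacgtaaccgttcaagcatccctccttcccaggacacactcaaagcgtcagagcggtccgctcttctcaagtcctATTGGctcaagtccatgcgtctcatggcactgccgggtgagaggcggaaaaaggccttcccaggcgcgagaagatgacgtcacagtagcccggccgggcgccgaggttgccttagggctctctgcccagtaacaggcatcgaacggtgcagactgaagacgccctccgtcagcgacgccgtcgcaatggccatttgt
POM121: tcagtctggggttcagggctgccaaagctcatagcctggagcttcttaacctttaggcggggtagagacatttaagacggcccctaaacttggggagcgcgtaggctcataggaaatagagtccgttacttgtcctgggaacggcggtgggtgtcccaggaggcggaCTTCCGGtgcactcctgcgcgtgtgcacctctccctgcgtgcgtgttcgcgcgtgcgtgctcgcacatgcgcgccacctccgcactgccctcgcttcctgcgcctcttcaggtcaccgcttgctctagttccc
NUP205: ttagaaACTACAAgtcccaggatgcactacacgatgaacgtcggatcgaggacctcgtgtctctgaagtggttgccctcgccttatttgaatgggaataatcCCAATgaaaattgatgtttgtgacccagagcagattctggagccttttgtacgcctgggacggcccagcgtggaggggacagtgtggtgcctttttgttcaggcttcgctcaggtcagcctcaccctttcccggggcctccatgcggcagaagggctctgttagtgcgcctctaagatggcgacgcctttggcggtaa

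Promoter windows were found for 29 of the 32 genes, among 35116 in all. CCGGAAG was in 13 of 29 windows (44.8%), against 10.3% of all windows and 19.0% of those of tested protein-coding genes. The NRF1 palindrome was in 3 of 29 (10.3%), against 1.24% and 2.24%, in NUP107, NUP50 and NUP62. GGGCGG, the Sp1 box, was in 12 (41.4%, against 45.0% and 70.0%), CCAAT in 11 (37.9%, against 34.6% and 36.8%) and ACTACAA in 1 (3.45%, against 2.77% and 3.83%). TATAAA was in 0 of 29, against 11.5% and 5.99%. Both strands were searched, and these motifs do not overlap in the windows printed. No motif was shared by the 3 genes that fell, and a match describes letters only.

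RANGAP1 loss for 2 h left 0 of 32 genes past the threshold (0.595% of all genes), with 0 (1297 of all 17812) at p under 0.05 by edgeR. With the replicate block, which pairs these samples, 1 passed, NUP58 at 0.19, against 8.1% of all genes. After 8 h, 10 of 32 passed, 31.2%, against 26.7% of all genes: 7 rose (13.6% of all genes) and 3 fell (13%). The block raised the count to 19, against 48.2% of all genes, and leaving out 1 library gave 7 to 11. Past the fold limits of 1.3 and 0.7 were 3 members, RAE1, NUP58 and NUP62, where 14.9% of all genes were.

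The rises at 8 h were mostly in the central channel, with 3 of 4 genes and a median of 0.39, and in the cytoplasmic filaments, with 3 of 7 and a median of 0.21. The median was -0.00 in the inner ring, -0.05 in the outer ring, -0.12 in the basket and -0.18 in the membrane. NUP62 was at 96.4, 103 and 96.7 CPM in untreated cells, at 108, 105 and 102 after 2 h and at 152, 147 and 144 after 8 h. It rose by 0.58 ± 0.06 (SE, log2, n = 3 per group; edgeR adjusted p = 0.000143), which is 1.5-fold, and the 8 h libraries lay far above the others of the line. NUP58 rose from 174, 198 and 189 CPM to 237, 246 and 263 (0.41 ± 0.07, edgeR adjusted p = 0.00256) and NUP54 from 105, 118 and 96.5 to 145, 142 and 128 (0.37 ± 0.08, edgeR adjusted p = 0.00949). The whole NUP62, NUP58 and NUP54 group of the channel was thus higher, with no overlap, while NUP98 was at 0.12 and passed with the block alone (edgeR adjusted p = 0.023).

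Among the filament genes, RAE1, which binds NUP98 and takes part in RNA export, was at 99.5, 103 and 80.2 CPM and then at 138, 136 and 116 (0.46 ± 0.1, edgeR adjusted p = 0.00802). NUP42 rose from 29.1, 33.5 and 30.4 CPM to 41.9, 39.2 and 39.9 (0.38 ± 0.07, edgeR adjusted p = 0.00473), and NUP214 from 58.4, 62.3 and 59.9 to 74, 80.8 and 73.1 (0.33 ± 0.07, edgeR adjusted p = 0.0051). RANBP2, the filament protein that holds RANGAP1 at the pore, was at 0.17 and passed with the block alone (edgeR adjusted p = 0.00171). In the inner ring NUP35 rose from 25.1, 27.8 and 23.4 CPM to 33.6, 32.9 and 30.2 (0.34 ± 0.08, edgeR adjusted p = 0.0131). All these 8 h ranges lay above the untreated ones.

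Without the block 3 genes fell at 8 h, in the outer ring and the membrane. NUP43, an outer ring protein, fell from 80.6, 86.7 and 85.8 CPM to 61.2, 68.6 and 68.7 (-0.35 ± 0.07, edgeR adjusted p = 0.005). NDC1 fell from 132, 158 and 148 CPM to 119, 124 and 128 (-0.24 ± 0.08, edgeR adjusted p = 0.0413), and POM121 from 34.4, 34.3 and 37.2 to 31.9, 29.2 and 29.7 (-0.22 ± 0.07, edgeR adjusted p = 0.0437). Each range lay below the untreated one. The 7 genes RAE1, NUP43, NUP214, NUP42, NUP54, NUP58 and NUP62 passed without each library in turn, NUP35 lost its call without auxin 8 h replicate 1 or replicate 2, NDC1 without any library but untreated replicate 1, and POM121 without any of the 6. NUP85 of the outer ring was at -0.31 (edgeR adjusted p = 0.0654) and NUP88 of the filaments at -0.26 (edgeR adjusted p = 0.0547), and neither passed. Of the basket, TPR had a log2 difference of -0.25 (edgeR adjusted p = 0.0563). With the block 7 genes fell, these 6 and NUP153: NUP85 (edgeR adjusted p = 1.79e-07), NUP88 (1.57e-06), TPR (2.9e-06) and NUP153 (-0.12, 0.0189) passed as well.

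The 8 h libraries were also compared with the 2 h ones. Of the 32 genes, 6 differed, against 15.2% of all genes: 5 were higher (8.05% of all genes) and 1 lower (7.15%). NUP62 differed by 0.49 (edgeR adjusted p = 0.00126), RAE1 by 0.36 (0.0271), NUP35 and NUP42 by 0.34 each (0.0223 and 0.0264) and NUP214 by 0.31 (0.0178), while NUP43 was at -0.30 (0.0243). With the replicate block, which pairs these samples, 17 passed, against 37.2% of all genes. The count was 1 without auxin 8 h replicate 1 or replicate 2, and 1 to 9 over all libraries left out, and NUP62 alone passed without each of the 6.

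NUP62 had the widest span of log2 differences of the 32 genes over the comparisons with untreated cells, -0.41 to 0.58. It fell after NXF1 and GANP loss and rose after 8 h of RANGAP1 loss. After TPR loss its differences were negative and did not pass without the replicate block: from 85, 86.3 and 88.8 CPM to 77.8, 59.5 and 73 at 2 h (-0.31, edgeR adjusted p = 0.248, but -0.32 and 2.36e-05 with the block, which pairs these samples), and in the old set from 101, 80 and 95.4 CPM to 73.7, 69.9 and 67.5 at 2 h (-0.40, adjusted p = 0.291) and to 71.1, 61.4 and 76 at 8 h (-0.41, adjusted p = 0.106). No auxin library of the AID-TPR sets reached the untreated range of its set. In parental cells NUP62 differed by -0.00. The difference between the NXF1 or GANP loss and the RANGAP1 loss was not tested.

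**Figure D4:**
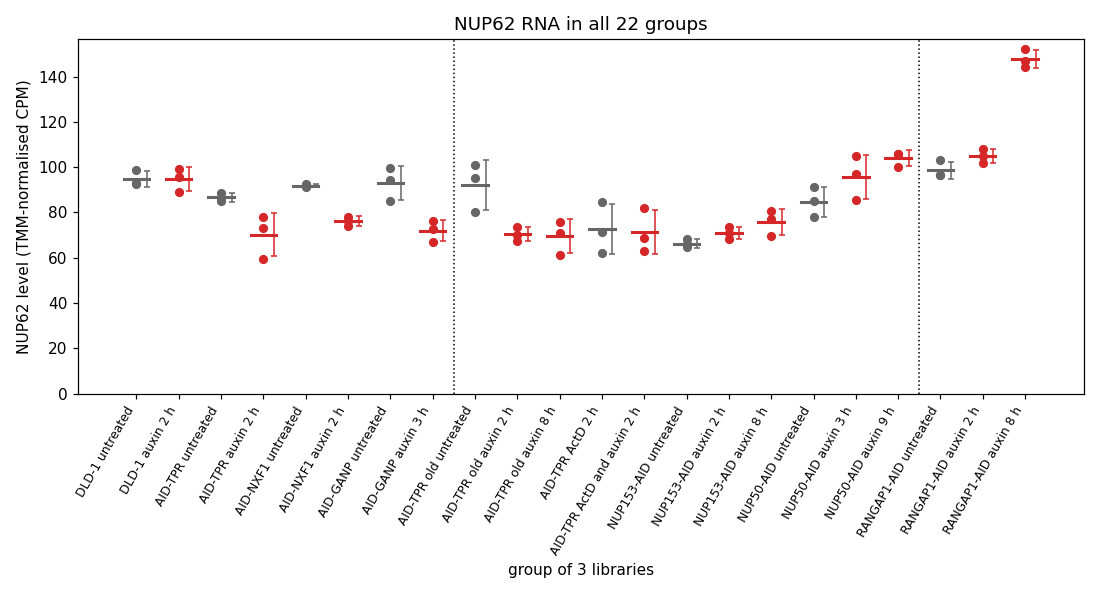
NUP62 level in each library (points, TMM-normalised CPM) of all 22 groups, with mean ± SD and auxin groups in red. Dotted lines part the 3 ways of counting. The RANGAP1-AID 8 h libraries, at 144 to 152 CPM, are above the other libraries of that line, and AID-TPR, AID-NXF1 and AID-GANP libraries lie lower after auxin, except with actinomycin D, where the groups overlap.

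NUP62 is at chr19:49906825-49929764 on the minus strand (GRCh38, GENCODE 44), and 21.34% of its exon bases overlap other genes, ATF5 on the opposite strand and IL4I1 and ENSG00000269179 on the same one. ATF5, a transcription factor of the stress response, fell by 0.53 on the log2 scale after GANP loss (edgeR adjusted p = 0.00172) and by 0.30 after NXF1 loss (0.00709), and was at 0.15 after 8 h of RANGAP1 loss, which did not pass (0.135). IL4I1, an amino acid oxidase, was at -0.37 (0.0429), -0.40 (0.00857) and 0.50 (0.00342). Untreated IL4I1 averaged 12.2 CPM in AID-NXF1, 13.4 in AID-GANP and 13.1 in RANGAP1-AID. In the sets counted without RMRP it averaged 0.254 CPM in old AID-TPR, 0.137 in NUP153-AID and 0.106 in NUP50-AID. Its level thus split with the way of counting, and whether its changes hold reads of NUP62 was not tested. Use of strand in counting was not given in the sources used here, and the part of shared reads in the NUP62 values was not tested. Overlaps touched 35.5% of the exon bases of NUP88, 15.87% of GLE1, 11.65% of NUP54 and 10.6% of NUP153.

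The 3 genes that fell after both NXF1 and GANP loss have 3 (NUP62), 7 (NUP42) and 13 (POM121) exons in their canonical transcripts. The 6 genes that rose after NXF1 loss have 9 to 51 and the 9 that rose after GANP loss 12 to 51, so the ranges overlap. Across the 32 genes, Spearman's rho of the log2 difference with the number of exons was 0.45 after NXF1 loss and 0.46 after GANP loss, and over 13137 tested protein-coding genes 0.27 and 0.29. After 8 h of RANGAP1 loss it was -0.38 over the 32 and -0.024 over all. Values of similar size were also found where no member passed in the main fit. Over the 32 and over all, rho was -0.34 and -0.085 after 2 h of NUP153 loss. It was 0.29 and 0.31 after 2 h of TPR loss (0.21 and 0.23 in the old set). After 3 h of NUP50 loss it was 0.27 and 0.087, and in parental cells -0.15 and 0.0057. A rho of this size is thus not particular to the 3 losses above. These correlations are across genes of the same libraries, which are not independent replicates.

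**Figure D5:**
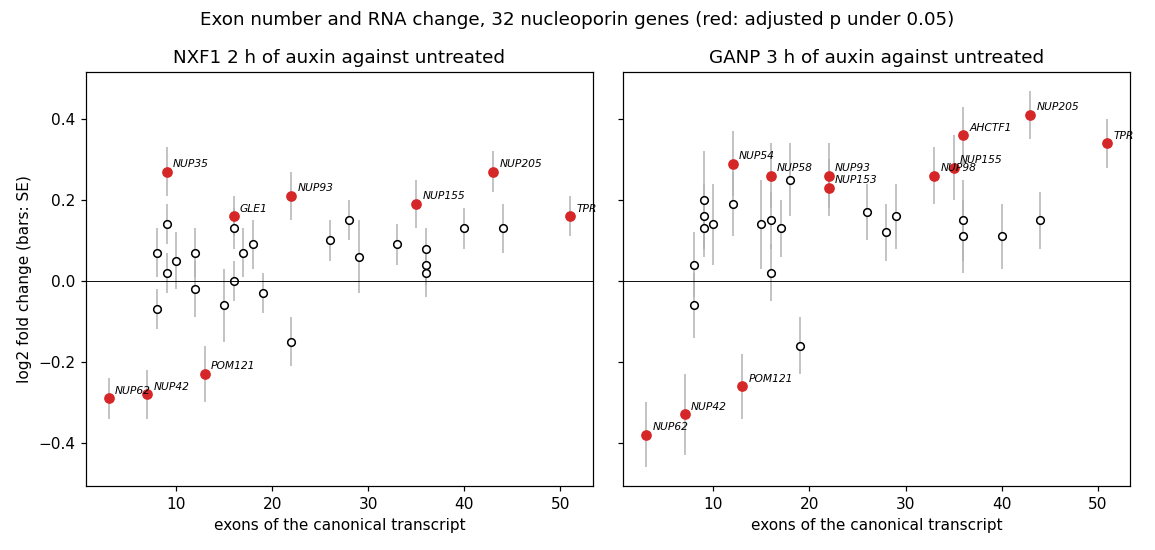
Log2 difference ± SE of the 32 nucleoporin genes (vertical axis) against the number of exons of the canonical transcript (horizontal axis) after loss of NXF1 (left) and GANP (right), with genes that passed in red. NUP62 (3 exons), NUP42 (7) and POM121 (13) lie lowest, and NUP205 (43) and TPR (51) lie above 0.

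The 33 genes of the pore's partners (RAN and its regulators, transport receptors, TREX-2 and export factors, and proteins of the nuclear envelope) were tested in the same fits. After GANP loss 7 of 33 passed (21.2%, against 28.9% of all genes), 4 up and 3 down, among them NXT1, the small partner of NXF1, at -0.74, and MAD1L1, a spindle checkpoint protein that binds TPR, at 0.40, with SUN2, an inner nuclear membrane protein, at -0.37. After NXF1 loss 8 passed (24.2%, against 21.5%), 4 in each direction, with NXT1 at -0.52, MAD1L1 at 0.28 and CETN2, a centrin of TREX-2, at 0.25. After 8 h of RANGAP1 loss 7 passed (21.2%, against 26.7%), 5 up and 2 down, with MAD2L1, the checkpoint partner of MAD1L1, at 0.51, MAD1L1 at 0.39 and TOR1AIP1, a lamina-bound membrane protein, at 0.35.

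In NUP153-AID cells 2 partners passed at 8 h (6.06%, against 1.92% of all genes), in NUP50-AID cells 2 at 9 h (6.06%, against 0.528%) and in the old AID-TPR set 1 at 8 h (3.03%, against 3.63%). After 8 h of NUP153 loss RANGAP1 rose by 0.33 and SUN2 by 0.28, and after 9 h of NUP50 loss RCC1, which loads RAN with GTP, rose by 0.38 and KPNB1, importin β, by 0.35. The RCC1 locus is also where TIR1 was inserted. After 8 h of TPR loss TOR1AIP1 rose by 0.56. At the earlier times of these basket losses 0 of 33 passed.

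With transcription blocked by actinomycin D, loss of TPR for 2 h changed 0 of 32 genes (0% of all genes). At p under 0.05 by edgeR were 0 of the 32 (78 of all 17812), and the differences of the 32 ran from -0.07 to 0.08. NUP62 was at 71.5, 62.3 and 84.5 CPM with actinomycin D alone and at 68.7, 63.2 and 82 CPM with auxin as well, so the ranges overlapped.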

How the data were processed

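The deposited files hold raw read counts per Ensembl gene, which the authors made from total RNA libraries (Ribo-Zero, TruSeq). The submitters' processing notes name CASAVA 1.8.2, STAR 2.6.1c, featureCounts 1.5.2 and GRCh38, and the study's methods give other versions of the aligner and counter. Strand and overlap settings are not given in the sources used here. Symbols, coordinates and exons came from GENCODE 44, where 56948 of 58051 identifiers matched. The nucleoporin genes, the gene lists and the tests were chosen with earlier results of these data known.

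Genes over 1 CPM in at least 4 of the 60 libraries without actinomycin D (over 5%) were tested, 17812 in all. Counts were scaled by TMM and tested by edgeR 4.0.16 (glmQLFit and glmQLFTest, R 4.3.3) in the 6 libraries of a comparison, or in 12 for a difference between comparisons, with Benjamini-Hochberg adjustment and a threshold of 0.05. Levels are TMM-normalised CPM, with factors taken within each way of counting. By rule, TPR, NUP153, NUP50 and up to 6 members past the threshold in each direction of a comparison were named, with up to 3 partners. Further members were named after their values were seen. The replicates are independent biological ones by the study's methods. Within each of 66 replicate pairs counts differed by more than sampling noise (chi-square per degree of freedom 4.07 to 67.4). Alternatives were DESeq2 1.42.0, other scalings and filters, a replicate block, 1 fit over 60 libraries, leaving out each library and, added after seeing the data, turning the parental labels. Same-numbered samples deviated together (every r over 0.1) in 9 of 17 comparisons, and only there were the numbers taken to pair the samples: TPR at 2 h, NUP153 at 2 h, RANGAP1 at 2 h and 8 h, NXF1, GANP, actinomycin D, and the later against the earlier time for NUP50 and RANGAP1. This cutoff is a choice and not a fact of the design. After 9 h of NUP50 loss r was 0.611, 0.0826 and 0.48, and in parental cells 0.639, 0.0635 and 0.53, with only the second value under it. The fits were also run on simulated counts with the same dispersion for every gene and no shared deviation of same-numbered samples. The data differ in both, so that run does not show how well the fits work on them. Promoter windows are from RefSeq.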

Additional observations from a re-analysis of the deposited data

Results flagged for a closer look

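Results are listed where the effect of a loss differed between time points or between a degron line and the parental cells by a test of that difference (edgeR, adjusted over 17812 genes). Between 8 h and 2 h of RANGAP1 loss NUP62 differed by 0.49 on the log2 scale, RAE1 by 0.36, NUP35 by 0.34, NUP42 by 0.34, NUP214 by 0.31 and NUP43 by -0.3. Each was close to its untreated level at 2 h, from -0.06 to 0.10.

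The effect of NXF1 loss differed from the difference within the parental cells (labelled auxin minus labelled untreated) by 0.25 for NUP205 (edgeR adjusted p = 0.0237), 0.29 for NUP35 (0.0264), -0.29 for NUP62 (0.0107) and -0.31 for NUP42 (0.0159). That of GANP loss differed from it by 0.38 for TPR (edgeR adjusted p = 0.000891), 0.39 for AHCTF1 (0.00195), 0.41 for NUP205 (0.000527), 0.29 for NUP155 (0.0141), 0.32 for NUP54 (0.0102), 0.34 for NUP58 (0.0278) and 0.28 for NUP98 (0.0137), and by -0.37 for NUP62 (0.0164), -0.35 for NUP42 (0.0456) and -0.29 for POM121 (0.0446). NUP205, NUP62 and NUP42 are in both lists. The parental libraries are shared by both contrasts, and CYP1A1 goes against their labels. With those labels turned, NUP58, NUP42 and POM121 no longer passed after GANP loss, and the other 11 values still did.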

How the results depend on the processing

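Of 52 named changes none changed sign in the alternatives run, 25 passed in all 7 settings and 16 of these also without each library left out. Counts of nucleoporin genes past the threshold moved by more than 1.5 times as follows, and the cause was not tested. Without the filter on low counts they were 1 for TPR 2 h, 1 for TPR old 2 h, 5 for TPR old 8 h, 2 for NUP50 3 h, 3 for NUP50 9 h and 2 for TPR against NUP50. In 1 fit over 60 libraries they were 1 for TPR 2 h, 6 for TPR old 2 h, 11 for TPR old 8 h, 2 for NXF1, 1 for TPR against NUP50, 0 for NXF1 against DLD-1 and 2 for GANP against DLD-1. Scaling to library totals gave 2 for TPR old 8 h, 1 for NUP50 9 h and 7 for GANP, and moved the median of all genes by at most -0.10. DESeq2 gave 4 for TPR old 8 h and 3 for NUP50 9 h. The share of all genes that passed in these settings, or with libraries left out, is not given here. These counts are therefore not read as particular to the nucleoporin genes.

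With the replicate block, where the numbers were taken to pair the samples, they were 6 for TPR 2 h, 1 for RANGAP1 2 h, 19 for RANGAP1 8 h, 18 for NXF1, 26 for GANP, 1 for NUP50 9 h against 3 h and 17 for RANGAP1 8 h against 2 h, and the block changed no other count there. The shares of all genes for these are given above. Where the numbers were not taken to pair the samples, the block gave 4 for TPR old 8 h (9.68% of all genes), 2 for NUP50 3 h (1.34%) and 6 for NUP50 9 h (13.0%). For differences between lines it gave 2 for TPR against NUP153 (4.58%) and 3 for TPR against NUP50 (3.12%). Against DLD-1 it gave 2 for TPR (7.53%), 10 for NXF1 (23.2%) and 19 for GANP (40.0%).

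Leaving out each library gave 0 to 6 for TPR old 8 h, 0 to 2 for NUP50 9 h, 7 to 11 for RANGAP1 8 h, 4 to 12 for NXF1, 6 to 10 for GANP, 1 to 9 for RANGAP1 8 h against 2 h, 2 to 6 for NXF1 against DLD-1 and 7 to 10 for GANP against DLD-1, and 0 in the other comparisons. Turning the parental labels, chosen after seeing the data, gave 0 for TPR, 5 for NXF1 and 9 for GANP against DLD-1. The median SE of the members was 0.05 to 0.14 on the log2 scale over the comparisons.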

Other observations

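The actinomycin D libraries and the untreated old AID-TPR libraries were counted the same way but carry different labels, so their levels are given as values only. The ratio of mean CPM with actinomycin D to untreated had a median of 1.12 over the 32 nucleoporin genes, with 10 under 1 and 22 over 1. It was lowest for POM121C, 0.542 (11.7 against 21.6 CPM), and for POM121, 0.594 (20.2 against 34.0 CPM), followed by NUP214 with 0.723 and NUP62 with 0.791 (72.8 against 92.0 CPM). NUP107 was at the upper end with 1.37.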
